A study of Homo sapiens with 9 samples.

Results

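The clustered histone genes are the replication-dependent genes for histones H1, H2A, H2B, H3 and H4, and their transcripts were compared here between parental A549 cells and 2 kinds of cells derived from them. The members were all human genes whose current symbol begins with H2AC, H2BC, H3C or H4C, together with H1-1 to H1-6, that were formerly named as HIST1 to HIST4 genes and had an array probe annotated to one of their RefSeq transcripts. Of 69 such genes in the reference table, 66 had a probe, out of 21743 genes named on the array, and the probe with the highest mean over the 9 arrays stood for each. H2AC18, H3C14 and H4C14, near-identical copies of H2AC19, H3C15 and H4C15, had no probe of their own. The members comprised 6 H1, 16 H2A, 18 H2B, 12 H3 and 14 H4 genes, of which 55 lie on chromosome 6, 10 on chromosome 1 and 1 on chromosome 12.

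Total RNA was measured on single-colour Agilent arrays in 3 groups of 3 samples. The parental A549 samples were untransduced cells of this line, which came from a human lung adenocarcinoma, and were labelled passages P98 to P99. The other groups, OSK-A549-Colony and OSK-A549-SN, descended from A549 cells transduced with retroviral OCT3/4, SOX2 and KLF4, and their samples were labelled P106 to P107. OSK-A549-Colony cells were grown from dome-shaped colonies picked several to a dish, and detached late in trypsin, whereas OSK-A549-SN cells were the spindle-shaped cells that grew out around such colonies and detached early. The methods describe neither group as a single clone, and the timing of detachment is part of what defines each group. They are also called colony cells and SN cells here. Per the study's methods, RNA of the 3 cell types came from 3 separate transduction experiments, and same-numbered OSK-A549-Colony and OSK-A549-SN samples share a passage label. In the methods, SN cells were collected from a dish first, and the colonies left on it were picked afterwards. Neither the methods nor the labels say whether same-numbered samples came from the same dishes. All 3 groups grew in medium with serum. Transduction and the later passage coincide in these groups and cannot be told apart, and no samples with an empty or control vector were analysed here.

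Nucleosomes, the units in which DNA is packed, are built from the core histones H2A, H2B, H3 and H4, and H1 binds the linker DNA between them. The clustered genes supply most of the histone protein made during S phase, when newly replicated DNA must be packed. Their messages are switched on by cyclin E and CDK2 acting through the coactivator NPAT and end in a stem-loop bound by SLBP instead of a poly(A) tail, although some of these genes also give longer polyadenylated transcripts.

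Values are log2 processed intensities minus the 75th percentile of the same array, so that 0 is the level of that percentile and a value of one gene cannot be set against that of another. The 75th percentile itself ranged from 217.5 to 270.6 intensity units, between 25809 and 29317 of 50599 probes per array were well above background, and no spot was saturated. OSK-A549-SN replicate 3 was alone on its slide, and the other 8 arrays shared the other. All 6 epithelial markers were well above background on all 9 arrays, while the fibroblast markers COL1A2, DCN, LUM and THY1 and the endothelial marker PECAM1 were so on none and COL1A1 on 3. VWF, CDH5, PTPRC and CD68, markers of endothelial cells and leukocytes, were well above background on all 9 arrays. Of these, VWF read -4.04 to -2.54, CDH5 -3.61 to -2.02 and PTPRC -3.22 to -2.08. These values are near the floor, since the lowest probe well above background read -4.99 to -4.01 across the arrays. In the colony cells against parental A549, CD68 was called higher (log2 difference 1.04, limma adjusted p = 0.027), while PTPRC was at -0.57 (limma adjusted p = 0.076). The CD68 difference stayed between 0.96 and 1.18 when single arrays were left out, and the call held only without parental replicate 3. No epithelial marker was called with all arrays. In the same comparison KRT19 was at 1.18, KRT7 at 0.15, KRT18 at -0.24, KRT8 at -0.36, EPCAM at -0.38 and CDH1 at -0.996 (limma adjusted p = 0.062 for KRT19 and 0.032 for CDH1). Without parental replicate 1, EPCAM was at -0.02 and CDH1 was called at -1.08 (limma adjusted p = 0.042). Between the colony and the SN cells, KRT19 was at 1.22, PTPRC at -0.56 and VWF at -0.71 (limma adjusted p = 0.134, 0.257 and 0.358), and without OSK-A549-SN replicate 3 PTPRC was at -0.36 and VWF at -0.37. Any part of other cells in the results was not tested.

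Of the 66 members, 60 were well above background on all 9 arrays, with log2 values from -3.25 to 9.45. H1-1, H1-5, H2BC1, H2BC7 and H4C7 passed on 1 array each, and H1-6, the testis form of H1, passed on none. The counts and medians below are over the 60 members, since the others could enter a test only through the 1 array on which they passed. A member or probe was called where the limma adjusted p was below 0.05 and the fold change exceeded 2. Comparisons with 3 arrays against 3 measure the spread between these cultures only.

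Clustered histone genes had lower values in OSK-A549-Colony cells than in OSK-A549-SN cells. All 60 members had a lower mean in OSK-A549-Colony, with a median log2 difference of -0.46 and a range from -0.98 to -0.06, against a median of -0.06 over all 31748 probes tested. The 3 OSK-A549-Colony arrays lay below all 3 OSK-A549-SN arrays for 54 of the 60 members, compared with 17.3% of all probes. At an unadjusted limma p below 0.05, 48 of the 60 were lower and 0 higher, compared with 10.7% of all probes that were lower. None of these differences passed the adjustment over all probes. In this comparison 0 members and 0 of 31748 probes (0%) were called, the smallest adjusted p was 0.0930 over all probes and 0.105 over the members, and all 60 differences were under 2-fold. When single arrays were left out, the median stayed between -0.51 and -0.37, 36 to 55 members were lower at the unadjusted threshold, and 59 or 60 had a lower mean. The exception was H3C3, without OSK-A549-SN replicate 2. In these bulk samples, a smaller share of cells in S phase and less histone RNA per cell cannot be told apart.

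**Figure D1:**
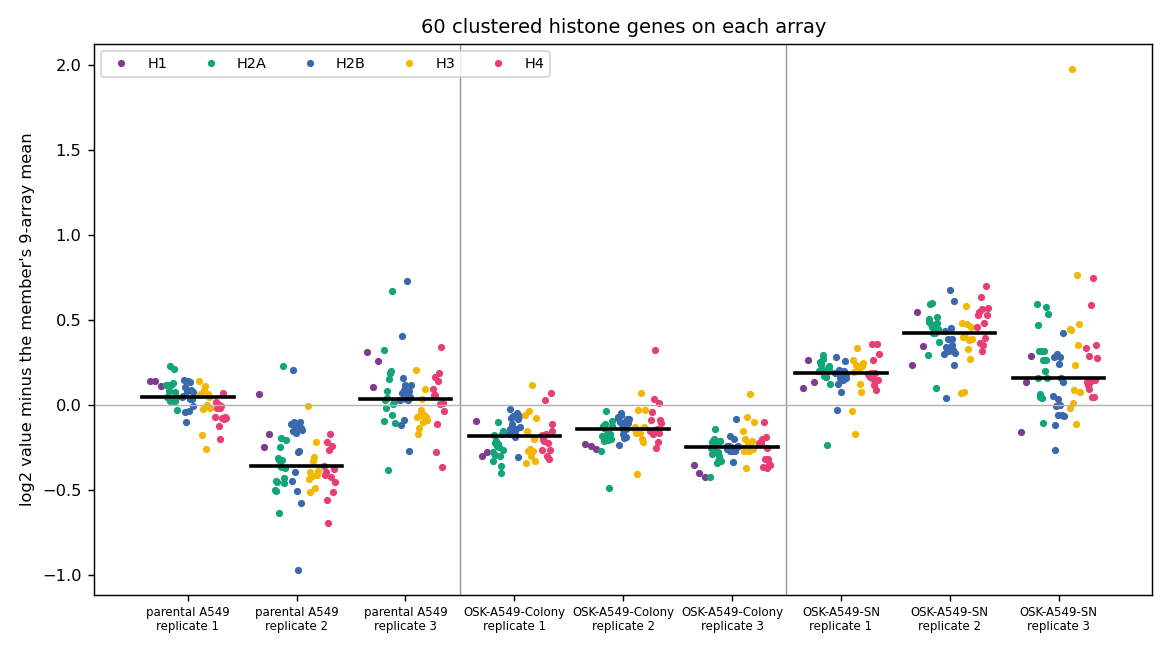
Log2 value of each of 60 clustered histone genes minus that gene's mean over the 9 arrays (vertical axis), for the 9 arrays by group and replicate (horizontal axis). Points are genes coloured by histone class and black lines are medians over the 60 genes. The medians of the 3 OSK-A549-Colony arrays lie between -0.25 and -0.14 and those of the OSK-A549-SN arrays between 0.16 and 0.42, while parental A549 replicate 2 sits at -0.36, apart from the other 2 parental arrays.

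The same order was seen array by array. The median deviation of the 60 members from their own 9-array means was -0.18, -0.14 and -0.25 in OSK-A549-Colony replicates 1 to 3 and 0.19, 0.42 and 0.16 in OSK-A549-SN replicates 1 to 3. In parental A549 it was 0.05, -0.36 and 0.04. OSK-A549-SN replicate 2 held the highest value of the 9 arrays for 45 members, and parental A549 replicate 2 held the lowest for 39. The median SD of a member was 0.22 for the parental, 0.08 for the OSK-A549-Colony and 0.18 for the OSK-A549-SN arrays. The medians over all probes well above background on all 9 arrays were close, at 0.21, 0.09 and 0.16. For the comparisons with the parental cells, results are therefore given also without parental replicate 2. These are the medians over the 60 members, their counts by mean and by unadjusted p, and the medians of the other gene lists.

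All 5 classes shared this direction. The linker histone genes had a median log2 difference of -0.58 over 3 measured genes. The core classes had medians of -0.53 for H2A (16 genes), -0.34 for H2B (16 genes), -0.53 for H3 (12 genes) and -0.48 for H4 (13 genes). The 3 arrays of each group did not overlap for 2 of 3 H1, 15 of 16 H2A, 14 of 16 H2B, 11 of 12 H3 and 12 of 13 H4 genes.

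Among the H1 genes, H1-2, which had the brightest probe of its class, read 5.36, 5.23 and 5.10 in OSK-A549-Colony, with 5.56, 5.69 and 5.30 in OSK-A549-SN. These ranges overlapped, and the log2 difference was -0.29 ± 0.14 (SE, n = 3 per group; limma adjusted p = 0.315). H1-4 read 3.80, 3.81 and 3.65 in OSK-A549-Colony against 4.21, 4.42 and 4.36 in OSK-A549-SN, with no overlap and a log2 difference of -0.58 ± 0.10 (SE, n = 3 per group; limma adjusted p = 0.108).

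Among the H2A genes, H2AC4 read 1.95, 2.13 and 2.00 in OSK-A549-Colony cells, 2.52, 2.82 and 2.88 in OSK-A549-SN cells, and 2.33, 1.87 and 2.24 in the parental cells. All 3 OSK-A549-SN arrays were above the other 6, and the colony values were 1.64-fold below them (log2 difference -0.71 ± 0.13, SE, n = 3 per group; limma adjusted p = 0.110). H2AC1, a gene known mainly from the testis, read -3.08, -3.02 and -3.18 in OSK-A549-Colony, with -2.55, -2.46 and -2.16 in OSK-A549-SN, without overlap. Its log2 difference was -0.70, and -0.27 with normexp background correction. H2AC14, the brightest probe of the class, had a smaller log2 difference of -0.44 ± 0.13 (SE, n = 3 per group; limma adjusted p = 0.182).

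Among the H2B genes, H2BC6 had the largest difference. It read 0.65, 0.87 and 0.87 in OSK-A549-Colony, with 1.21, 1.56 and 1.38 in OSK-A549-SN, a log2 difference of -0.59 ± 0.13 (SE, n = 3 per group; limma adjusted p = 0.127). H2BC12 was at the other end of the class, with overlapping values and a difference of -0.08 ± 0.12 (SE, n = 3 per group; limma adjusted p = 0.716). The brightest H2B probe, that of H2BC13, differed by -0.28 ± 0.14 (SE, n = 3 per group; limma adjusted p = 0.336) and by -0.18 without OSK-A549-SN replicate 2. The H2BC12 difference ran from -0.17 to -0.02 when single arrays were left out, and the second H2BC12 probe gave -0.25 ± 0.13 (SE, n = 3 per group; limma adjusted p = 0.345).

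H3C12 had the largest difference of all 60 members, but a single array set its size. It read 1.58, 1.44 and 1.47 in OSK-A549-Colony, with 1.68, 1.92 and 3.82 in OSK-A549-SN, where replicate 3, the array on its own slide, stood far above the other 2. The log2 difference was -0.98 ± 0.58 (SE, n = 3 per group; limma adjusted p = 0.395) and became -0.30 without that array. H3C3 was the H3 gene with the smallest difference, -0.06 ± 0.13 (SE, n = 3 per group; limma adjusted p = 0.828), and its sign was not settled, since it was 0.04 without OSK-A549-SN replicate 2 and 0.00898 with quantile normalization. H3C1 followed at -0.12, and H3C13, the brightest probe of the class, differed by -0.26 ± 0.12 (SE, n = 3 per group; limma adjusted p = 0.303) and by -0.17 without OSK-A549-SN replicate 2.

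Among the H4 genes, which apart from H4C7 encode the same protein, H4C4 read 4.23, 4.34 and 4.18 in OSK-A549-Colony cells, 4.74, 5.04 and 5.30 in OSK-A549-SN cells and 4.48, 4.13 and 4.56 in parental A549. Its OSK-A549-SN values were above all others, and the colony values were 1.71-fold lower (log2 difference -0.78 ± 0.16, SE, n = 3 per group; limma adjusted p = 0.119). H4C3, the brightest probe of the class, read 8.87, 8.95 and 8.90 in OSK-A549-Colony, with 9.24, 9.45 and 9.14 in OSK-A549-SN, again without overlap.

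H2AC4 and H4C4 were also the 2 of the 60 members that passed a limma F test for any difference among the 3 groups, with adjusted p of 0.043 and 0.046, compared with 11.4% of all 33087 probes tested. At an unadjusted p below 0.05, 39 of the 60 passed, compared with 30.5% of all probes. The 2 calls are at the edge of the threshold. No member passed when any 1 of the OSK-A549-Colony or OSK-A549-SN arrays, or parental A549 replicate 2, was left out. Without parental A549 replicate 1, 7 passed, and 3 without replicate 3. The number also depended on the processing. It rose with normexp background correction and the stricter detection filter, and none passed with no detection filter or no moderation, as given at the end.

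**Figure D2:**
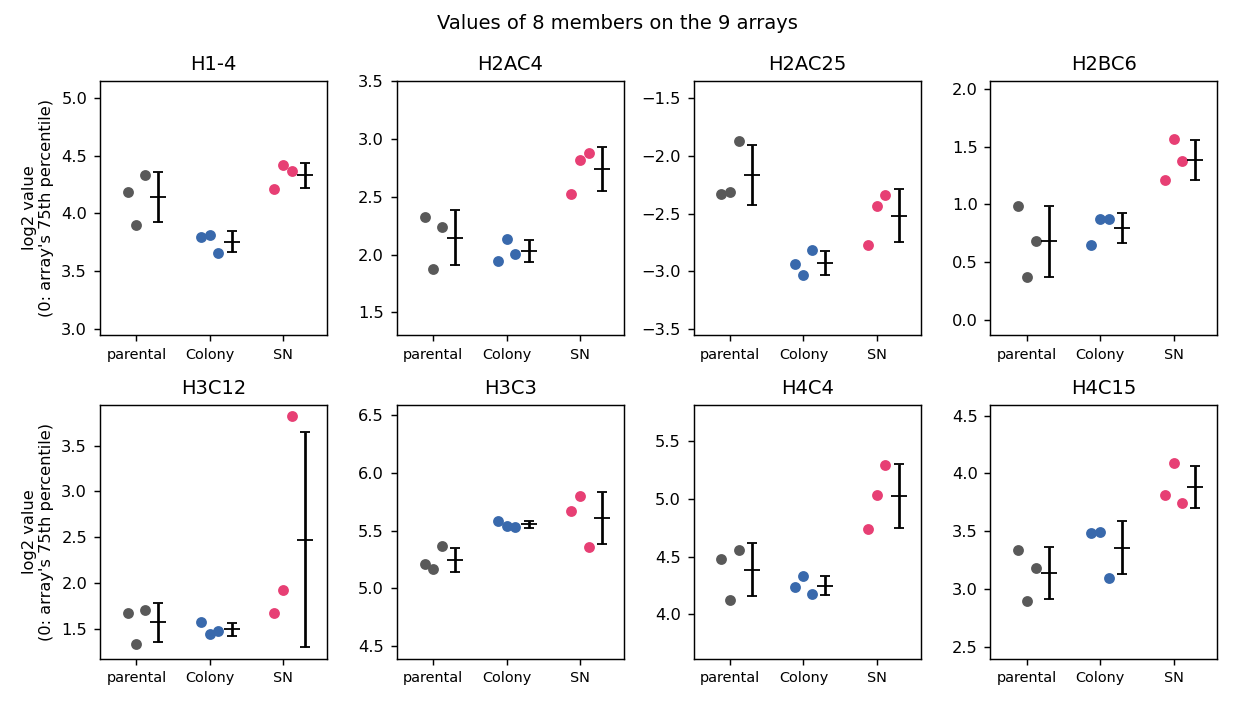
Log2 values relative to the array's 75th percentile (vertical axes) of 8 members in the 3 groups, with 1 point per array and, to the right of each group, its mean and SD. H2AC4, H4C4, H2BC6 and H4C15 are highest in the 3 OSK-A549-SN arrays, H2AC25 and H1-4 are lowest in OSK-A549-Colony, H3C3 is lowest on 2 parental arrays, and the H3C12 mean of OSK-A549-SN is drawn up by 1 array.

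Promoter windows from 250 bases before to 50 bases after the annotated start (RefSeq, GRCh38.p14) were found for 61 of the 66 members, 65 windows in all. The octamer element ATTTGCAT, the site of POU-domain factors such as OCT1 that is known from H2B promoters, was present on either strand in 15 of 20 H2B windows, 11 of 15 H2A windows and 1 of 12 H3 windows, in none of 6 H1 and 12 H4 windows, and in 1.77% of all 35116 windows. CCAAT was in all H1, H2A, H2B and H3 windows and in 3 of 12 H4 windows (34.6% of all), and TATAAA in 43 of 65 (11.5% of all). GGTCC, part of the H4 element bound by HINFP, was in 11 of 12 H4 windows, but is common in general (46.3% of all). These motifs were searched on both strands, and 9 overlaps between different motifs occurred within member windows. The following windows are shown for H2AC4 and H4C4, which passed the F test, for H2BC6, the H2B gene with the largest difference between the colony and SN cells, for H1-4, and for H2AC25, which differed from the other members as described below. Capitals mark matches to the 4 motifs. H2AC4 lies on the minus strand (chr6:26033569-26033868), H4C4 on the minus strand (chr6:26189063-26189362), H2BC6 on the plus strand (chr6:26183511-26183810), H1-4 on the plus strand (chr6:26156079-26156378) and H2AC25 on the minus strand (chr1:228457824-228458123), and each is written 5′ to 3′ along the gene.
H2AC4: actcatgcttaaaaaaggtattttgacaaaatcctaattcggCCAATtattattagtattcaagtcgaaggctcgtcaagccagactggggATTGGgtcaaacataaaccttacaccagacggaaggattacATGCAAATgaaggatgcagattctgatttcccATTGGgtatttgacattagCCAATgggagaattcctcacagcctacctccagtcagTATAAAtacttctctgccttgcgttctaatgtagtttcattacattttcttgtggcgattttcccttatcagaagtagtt
H4C4: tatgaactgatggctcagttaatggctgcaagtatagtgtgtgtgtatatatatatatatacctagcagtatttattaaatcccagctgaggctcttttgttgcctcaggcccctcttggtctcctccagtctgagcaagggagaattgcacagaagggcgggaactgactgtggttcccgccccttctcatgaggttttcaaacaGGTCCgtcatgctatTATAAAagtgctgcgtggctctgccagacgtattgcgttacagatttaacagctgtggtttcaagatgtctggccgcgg
H2BC6: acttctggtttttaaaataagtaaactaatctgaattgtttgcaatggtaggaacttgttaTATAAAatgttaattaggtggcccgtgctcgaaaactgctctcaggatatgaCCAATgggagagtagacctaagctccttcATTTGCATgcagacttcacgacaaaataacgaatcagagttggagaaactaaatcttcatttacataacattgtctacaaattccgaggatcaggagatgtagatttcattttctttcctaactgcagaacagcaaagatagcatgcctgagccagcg
H1-4: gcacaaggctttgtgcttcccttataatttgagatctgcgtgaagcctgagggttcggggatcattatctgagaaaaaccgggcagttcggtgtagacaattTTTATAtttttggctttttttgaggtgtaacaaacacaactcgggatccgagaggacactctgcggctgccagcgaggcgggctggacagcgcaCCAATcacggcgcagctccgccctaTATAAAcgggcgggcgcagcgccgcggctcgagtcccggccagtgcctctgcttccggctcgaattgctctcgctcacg
H2AC25: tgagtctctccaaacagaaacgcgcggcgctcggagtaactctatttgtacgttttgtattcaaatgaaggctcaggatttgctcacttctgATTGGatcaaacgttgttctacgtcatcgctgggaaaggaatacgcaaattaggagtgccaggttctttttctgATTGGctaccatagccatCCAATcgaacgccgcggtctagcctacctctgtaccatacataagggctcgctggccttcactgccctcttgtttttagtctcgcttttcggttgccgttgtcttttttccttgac

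The octamer element began 118 bases before the start in H2AC4 and 108 bases before it in H2BC6, and neither H4C4, H1-4 nor H2AC25 held the exact letters. TATAAA began 30 bases before the start of H2AC4 and 29 bases before that of H4C4, where GGTCC preceded it at 44 bases. The octamer element did not go with a larger difference in both classes. Among measured H2A genes the median log2 difference of OSK-A549-Colony from OSK-A549-SN cells was -0.55 for the 11 with it and -0.42 for the 4 without it, while among H2B genes it was -0.33 for the 12 with it and -0.36 for the 4 without it.

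Many H2A and H2B genes are transcribed away from each other from a shared promoter region. There were 11 such pairs among the members, with starts 194 to 248 bases apart, and both genes were measured on all arrays in 9 of them. In each of the 9, both partners had lower means in OSK-A549-Colony cells than in OSK-A549-SN cells, with medians of -0.52 for the H2A and -0.38 for the H2B partners, and the H2A partner had the more negative difference in 7. H2AC13 and H2BC13 lay furthest apart within a pair, at -0.65 and -0.28, as seen after their values were known. Between OSK-A549-SN and parental A549, 8 of the 9 pairs had partners with the same sign, and the exception was H2AC25, at -0.35, opposite H2BC26, at 0.39 ± 0.42 (SE, n = 3 per group). The sign of H2BC26 rested on 1 array, since its difference was -0.04 without parental replicate 2.

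Compared with parental A549, members were mostly higher in OSK-A549-SN. Of the 60, 56 had a higher mean, with a median log2 difference of 0.38 against 0.08 over all 32223 probes tested. The arrays did not overlap for 31 members that were higher (16.8% of all probes) and 2 that were lower (15.2% of all probes), and 20 members were higher at an unadjusted limma p below 0.05 (11.2% of all probes) with 0 lower. No member was called, compared with 498 probes (1.55%), which became 0 without OSK-A549-SN replicate 1 or 2 and 2 without parental replicate 2, and the smallest adjusted p among the members was 0.0940. Class medians were 0.19 for H1, 0.38 for H2A, 0.20 for H2B, 0.43 for H3 and 0.44 for H4. Without parental replicate 2, the median over the 60 members went from 0.38 to 0.24, and 54 had a higher mean. The number at an unadjusted p below 0.05 went from 20 to 3, compared with 7.38% of all probes higher in that fit. The class medians were then 0.07 for H1, 0.23 for H2A, 0.09 for H2B, 0.31 for H3 and 0.31 for H4. OSK-A549-SN replicates 2 and 3 bear on the same count, which was 3 without replicate 2 and 11 without replicate 3.

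H4C15, whose sequence is shared with H4C14, had the smallest adjusted p. It read 3.82, 4.09 and 3.74 in OSK-A549-SN and 3.33, 2.90 and 3.18 in parental A549, a 1.68-fold difference (log2 0.75 ± 0.18, SE, n = 3 per group; limma adjusted p = 0.0940). H4C6 read 2.52, 2.86 and 2.30 against 2.08, 1.64 and 1.79, and H2BC6 read 1.21, 1.56 and 1.38 against 0.99, 0.37 and 0.68. Neither pair of groups overlapped, at log2 differences of 0.72 ± 0.20 and 0.70 ± 0.20 (SE, n = 3 per group; limma adjusted p = 0.125 and 0.130). H3C12 had the largest mean difference, 0.90 ± 0.57 (SE, n = 3 per group; limma adjusted p = 0.411), which was 0.23 without OSK-A549-SN replicate 3.

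A few members did not share this direction. H2AC25 read -2.77, -2.44 and -2.34 in OSK-A549-SN and -2.33, -2.31 and -1.87 in parental A549, and H2BC12 read 3.94, 4.01 and 3.70 against 4.11, 4.17 and 4.37. These 2 were the members whose OSK-A549-SN arrays all lay below the parental ones, with log2 differences of -0.35 ± 0.20 and -0.34 ± 0.15 (SE, n = 3 per group; limma adjusted p = 0.366 and 0.266). The H2AC25 difference was -0.20 without parental replicate 3, -0.22 without OSK-A549-SN replicate 1 and -0.12 with normexp background correction. A second probe of H2BC12, a gene with a long annotated span, gave 0.10 ± 0.16 (SE, n = 3 per group), so its direction was not settled. H1-2 and H3C1 were also lower on average, at -0.11 each, within the spread of their arrays, and at -0.0042 for H1-2 without OSK-A549-SN replicate 3 and -0.06 for H3C1 without parental replicate 3.

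**Figure D3:**
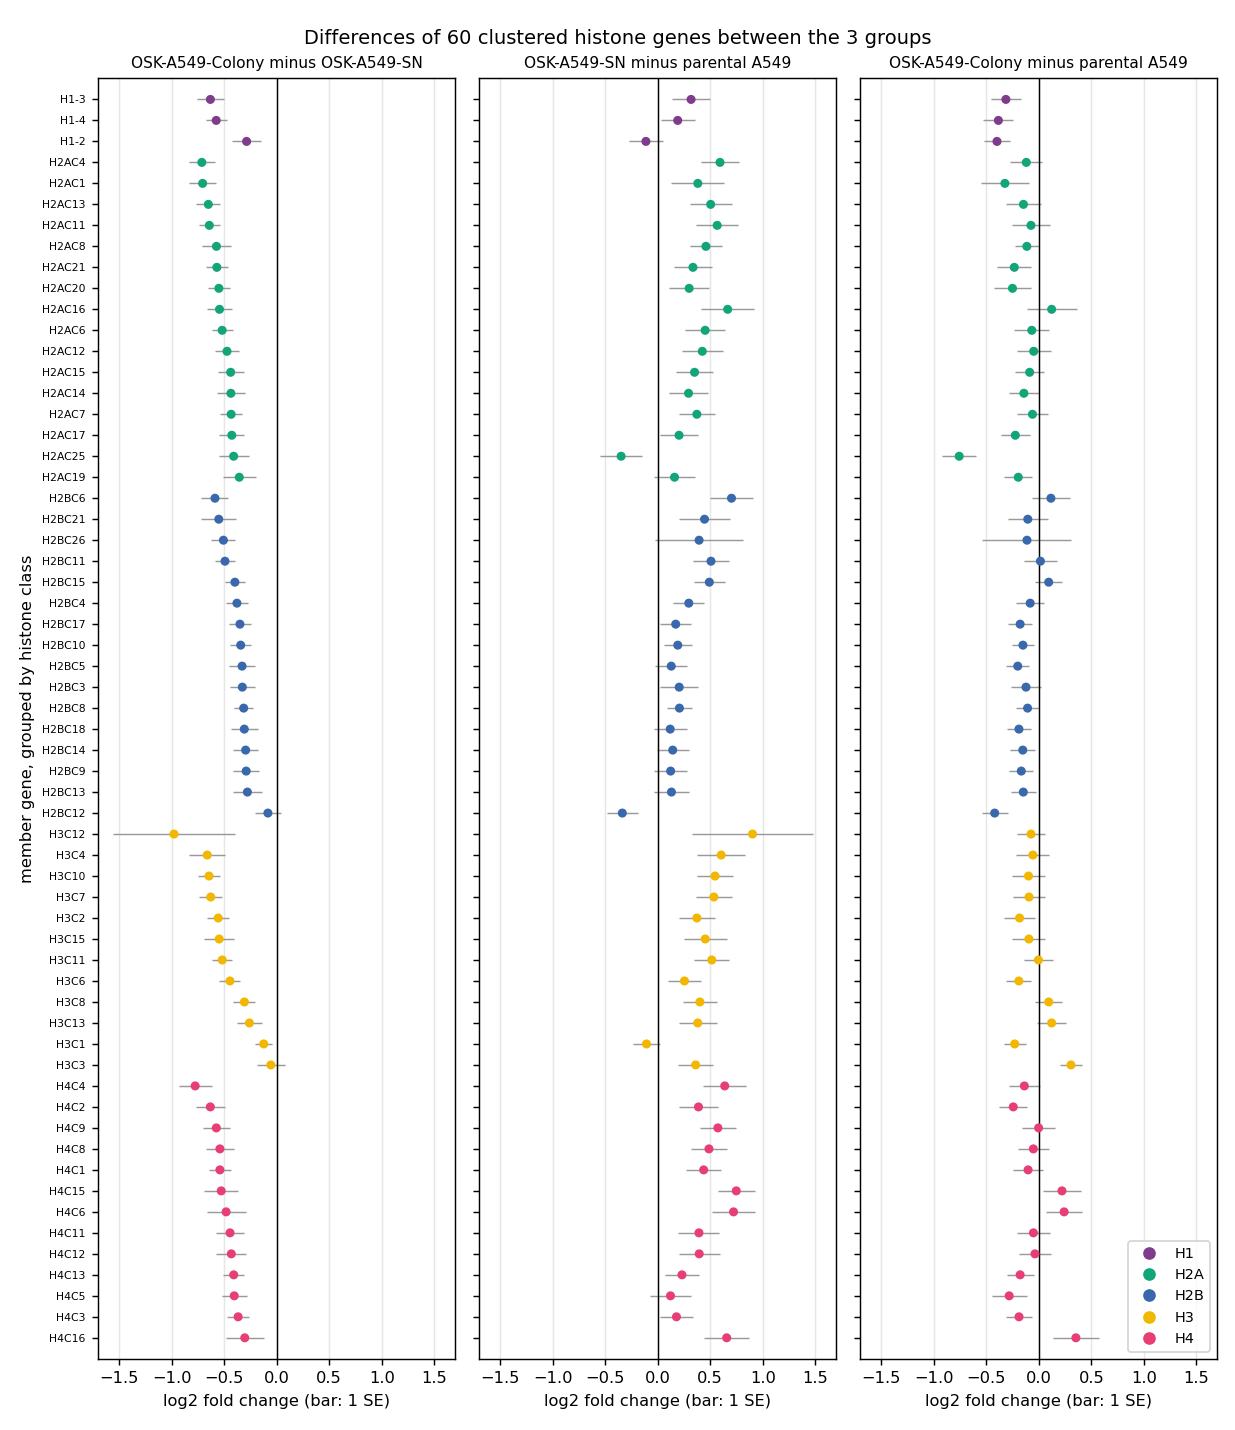
Log2 fold changes (horizontal axes, bars of 1 SE, 3 arrays per group) of 60 clustered histone genes (vertical axis, grouped by class and ordered by the first comparison) in 3 comparisons. All 60 are below 0 in the left panel, 56 are above 0 in the middle panel, and 50 are below 0 in the right panel, where the median is -0.11.

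OSK-A549-Colony and parental A549 were closer to each other. Of the 60 members, 50 had a lower mean in OSK-A549-Colony, but the median log2 difference was only -0.11, against -0.03 over all 30869 probes tested. The arrays did not overlap for 5 members that were lower, compared with 20.7% of all probes, and for 1 that was higher. At an unadjusted limma p below 0.05, 4 members were lower and 1 was higher, compared with 14.9% and 15.2% of all probes, and no member was called, compared with 1143 probes (3.70%), which became 1 when parental replicate 2 was left out and 0 when OSK-A549-Colony replicate 2 was. The result turned on the parental arrays. Without parental replicate 1 the median was -0.06 and 37 of the 60 were lower, and without replicate 3 it was -0.06 and 42 were lower, with a class median of 0.0086 for H3 in the first case and 0.03 for H4 in the second. Without parental replicate 2 the median was -0.24 and 56 of the 60 were lower. In that fit 16 members passed the unadjusted threshold instead of 5, compared with 13.2% of all probes that were lower and 12.4% higher. The number was 3, 1 and 1 without OSK-A549-Colony replicates 1, 2 and 3. All 3 OSK-A549-Colony arrays lay below both parental replicates 1 and 3 for 48 of the 60 members, compared with 26.7% of all probes. With all arrays, the H1 genes had the largest class median, -0.39, and the core classes had medians of -0.13 for H2A, -0.14 for H2B, -0.08 for H3 and -0.05 for H4. Without parental replicate 2 they were -0.45 for H1, -0.27 for H2A, -0.24 for H2B, -0.22 for H3 and -0.20 for H4.

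H2AC25 was the only member with an adjusted p below 0.05, compared with 9.02% of all probes. This H2A gene on chromosome 1 read -2.94, -3.03 and -2.81 in OSK-A549-Colony, 1.69-fold below its parental values (log2 difference -0.76 ± 0.16, SE, n = 3 per group; limma adjusted p = 0.046), which is short of the 2-fold rule. Its probe was dim, at 28.7 to 59.6 intensity units over the 9 arrays, and with normexp background correction the difference was -0.30. Its adjusted p was below 0.05 in 5 of 15 alternative settings, and of the 6 arrays left out in turn, only parental replicate 3 could be removed with it staying there. H1-4 read 3.80, 3.81 and 3.65 against 4.19, 3.90 and 4.33 in parental A549, and H1-2 had the same direction, at -0.39 ± 0.14 and -0.40 ± 0.12 (SE, n = 3 per group; limma adjusted p = 0.143 and 0.098). H2BC12 differed by -0.42 ± 0.12 (SE, n = 3 per group; limma adjusted p = 0.090), but its second probe gave -0.16 ± 0.11 (SE, n = 3 per group; limma adjusted p = 0.395).

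In the other direction, H3C3 read 5.59, 5.54 and 5.53 in OSK-A549-Colony and 5.21, 5.17 and 5.37 in parental A549. It was the only member whose colony arrays all lay above the parental ones, at a log2 difference of 0.31 ± 0.10 (SE, n = 3 per group; limma adjusted p = 0.112). H4C16, the single member on chromosome 12, had a larger mean difference but overlapping arrays (0.35 ± 0.22, SE, n = 3 per group; limma adjusted p = 0.330). H4C6 and H4C15 followed at 0.24 and 0.22, also with overlap. Parental replicate 2 set much of these sizes, since without it H4C16, H4C6 and H4C15 differed by 0.17, 0.14 and 0.10, and H3C3 by 0.26.

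The means of 46 of the 60 members ran from OSK-A549-Colony through parental A549 to OSK-A549-SN. In 10 members parental A549 was lowest and OSK-A549-SN highest, and in 4, H1-2, H2AC25, H2BC12 and H3C1, parental A549 was highest. The arrays of OSK-A549-Colony and parental A549, the lower neighbours in most of these orders, overlapped for 54 of the 60 members, while 20.7% of all probes were lower and 20.9% higher without overlap. Without parental replicate 2 they overlapped for 11 members, and the orders in the same sequence held 50, 4 and 6 members.

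Genes of DNA replication, which are also active around S phase, were read beside the histone genes. Of 20 such genes, 19 had lower means in OSK-A549-Colony cells than in OSK-A549-SN cells, with a median log2 difference of -0.26 and 11 at an unadjusted limma p below 0.05, compared with 10.7% of all probes. All 20 had higher means in OSK-A549-SN than in the parental cells, with a median of 0.48. Between OSK-A549-Colony and the parental cells, however, 14 of the 20 were higher in the former, with a median of 0.24, where the histone median was -0.11. Only CDC6, which loads the replicative helicase, was called, at 1.03 above parental A549 in the colony cells (limma adjusted p = 0.039) and 1.03 in the SN cells (limma adjusted p = 0.049). This is 1 of 20 genes in each comparison, beside 3.70% and 1.55% of all probes. RRM2, a subunit of ribonucleotide reductase picked after its values were seen, had differences of 0.99 and 1.29 (limma adjusted p = 0.063 and 0.068). CDC6 was no longer called in either comparison when any 1 array was left out, with differences of 0.86 to 1.17, and RRM2 was called in the colony cells without parental replicate 1 (1.26, limma adjusted p = 0.028). Without parental replicate 2 the medians of the list were 0.43 in the SN and 0.15 in the colony cells, and 18 and 14 of its 20 genes were higher. The 2 comparisons with parental A549 share its arrays, and the difference between the lists was not tested.

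**Figure D4:**
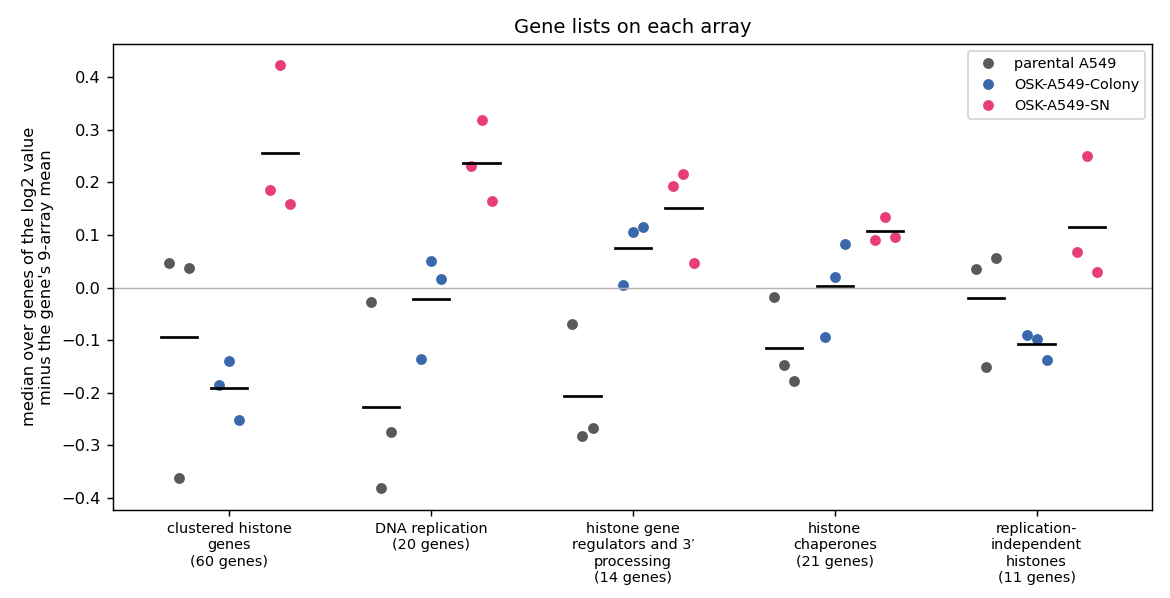
Median over the genes of a list of the log2 value minus each gene's 9-array mean (vertical axis), with 1 point per array, a line at the mean of each group, and 5 gene lists along the horizontal axis. OSK-A549-SN is highest on average in all 5 lists, while OSK-A549-Colony lies below parental A549 on average for the 60 clustered and the 11 replication-independent histone genes, and above it for the other 3 lists.

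Regulators of histone genes and of histone 3′ end processing were read next. CPSF2, a subunit of the cleavage complex, was well above background on a single OSK-A549-SN array and is left out of the values of this list. The median over the other 16 genes was -0.06 for OSK-A549-Colony minus OSK-A549-SN, 0.34 for OSK-A549-SN minus parental A549 and 0.27 for OSK-A549-Colony minus parental A549, and none was called with all arrays. Without parental replicate 2 the last 2 medians were 0.33 and 0.20, and the first was 0.0033 and 0.0021 without OSK-A549-SN replicates 1 and 2. In the first of these comparisons 10 of the 16 had lower means, compared with 58.1% of all probes, 3 were lower at an unadjusted limma p below 0.05 (10.7% of all probes) and 0 were higher (8.80% of all probes). These 3, named after their values were seen, were CDK2, the kinase that activates NPAT, at -0.41, E2F1, an activator of S phase genes, at -0.31, and CPSF3, the nuclease that cuts histone messages, at -0.26 (limma adjusted p = 0.130, 0.192 and 0.198). CDK2 read -1.27, -1.23 and -1.08 in the colony cells and -0.79, -0.71 and -0.84 in the SN cells, without overlap. CCNE2, a cyclin E that activates CDK2, had the largest SN difference from parental A549, at 1.43 (limma adjusted p = 0.117), and the colony difference was 1.51 (limma adjusted p = 0.065). In the colony cells CCNE2 was called without parental replicate 1, at 1.87, and without parental replicate 3, at 1.12 (limma adjusted p = 0.037 and 0.048). NPAT was at 1.07 in the SN and 0.92 in the colony cells (limma adjusted p = 0.349 and 0.338). Its parental arrays read -2.46, -2.93 and -4.69. Of the 16 genes, 14 were higher and 2 lower in the colony than in the parental cells. Among them, CCNE1 was at 0.68, short of the 2-fold rule, and HINFP at -0.39 (limma adjusted p = 0.046 and 0.086), named after their values were seen. SLBP, the stem-loop binding protein, picked for its role after its values were seen, read 3.75, 3.38 and 3.44 in parental A549, 3.93, 4.07 and 4.13 in the colony cells and 4.03, 4.02 and 3.75 in the SN cells. Its colony and SN values overlapped and differed by 0.11 (limma adjusted p = 0.620).

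Histone chaperones and assembly factors had medians of -0.09, 0.24 and 0.16 over 22 genes in the same order of comparisons and no call. The last 2 were 0.26 and 0.10 without parental replicate 2, 0.30 and 0.23 without replicate 1, and 0.17 and 0.15 without replicate 3. MMS22L and TONSL, partners in a complex that handles new H3 and H4 at replication forks, had the largest differences between the SN and the parental cells. They were at 0.75 and 0.74 (limma adjusted p = 0.358 and 0.063). Parental replicate 3 set the size of the first, since MMS22L read -0.20, -0.27 and -1.66 in the parental cells and the difference was 0.27 without that array. Between the colony and the SN cells, 4 of the 22 were lower and 2 higher at an unadjusted limma p below 0.05 (10.7% and 8.80% of all probes), with ASF1B, a chaperone of H3 and H4, and CABIN1, a subunit of the HIRA complex, both at -0.46 (limma adjusted p = 0.127 and 0.12), named after their values were seen. The genes listed as replication-independent histones lie outside the clusters, and most are expressed through the cell cycle or in its later part. This list had medians of -0.18, 0.15 and -0.03 over 11 genes and no call. The last 2 medians were 0.07 and -0.10 without parental replicate 2. The last had no settled sign, at -0.0050 without parental replicate 1 and 0.01 without parental replicate 3. H2AX, the H2A variant that marks DNA breaks when phosphorylated, and CENPA, the centromeric H3, had differences of -0.50 and -0.53 in the first of these comparisons (limma adjusted p = 0.106 for both), close to the median of the clustered genes. H3-3B had no matched probe.

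The lower values of the colony cells against the SN cells were seen with second probes and across gene structure and location. Of 10 members with 2 probes, both were measured in 9, and the 9 second probes all had the same sign as the first in that comparison, against 8 of 9 for OSK-A549-SN and 7 of 9 for OSK-A549-Colony compared with parental A549. The exceptions besides H2BC12 were H2AC6, at -0.07 and 0.21, and H4C1, at -0.10 and 0.60 in OSK-A549-Colony minus parental A549. The second H4C1 probe, at 0.60 ± 0.17 (SE, n = 3 per group; limma adjusted p = 0.087), was thus above every increase given for the chosen probes in that comparison. The median was -0.41 for the 8 members with an annotated span over 1000 bases, which have longer transcripts on record, and -0.48 for the 52 others, and it was -0.44 for 49 genes on chromosome 6 and -0.52 for 10 on chromosome 1. Members are not independent of each other, since many are near-identical in sequence and a probe may read more than one of them. Probe sequences were not used here, so this was not tested.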

How the data were processed

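Total RNA of 9 cultures was labelled with Cy3 and hybridised to Agilent arrays with an annotation on hg19. The authors deposited the processed intensity of each spot from Feature Extraction 11.5.1.1, background-subtracted but not scaled between arrays, and a log2 table, which after a constant shift per array held the same values to within 0.001 for 100% of probes. How RNA was primed for labelling is not given in the sources used here, which matters because most histone transcripts lack a poly(A) tail.

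Spots flagged as outliers were removed, spots of a probe were averaged as log2 values, and each array's 75th percentile was subtracted. A probe was well above background where at least 0.5 of its spots were. Each comparison was fitted with limma 3.58.1 (R 4.3.3) on its 6 arrays over probes detected on 1 or more of them, with Benjamini-Hochberg adjustment over all of them, after a check on simulated data. Members were matched by RefSeq accession and symbol (GRCh38.p14), and 17 further genes with such symbols, mostly pseudogenes, were left out. Named genes were members past the F test, the 4 largest differences each way in a comparison among members well above background in the brighter group, the brightest of each class, and, in other lists, called genes or the 2 largest differences between OSK-A549-SN and parental A549. Members and lists were chosen with earlier results of these data known. Alternatives were normexp (offset 50), quantile normalization, other filters, slide or replicate blocks, 1 fit of all arrays, no moderation, the deposited table, probe means and leaving out each array.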

Additional observations from a re-analysis of the deposited data

How the results depend on the processing

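No member was called in any comparison under any alternative run. The medians and counts of members in this paragraph are over all members that entered a run, 60 to 66 of them. They thus include members that passed background on 1 array or on none. The median log2 difference stayed between -0.52 and -0.37 in OSK-A549-Colony minus OSK-A549-SN. It stayed between 0.24 and 0.45 in OSK-A549-SN minus parental A549, and between -0.24 and -0.07 in OSK-A549-Colony minus parental A549. In the first of these comparisons, 60 to 65 members were lower under every alternative run. Among the members named in the text, the direction held in 350 of 352 gene settings of the first comparison, 351 of 352 of the second and 323 of 330 of the third. H3C3 in the first was 0.00898 with quantile normalization and 0.0394 without OSK-A549-SN replicate 2 (range -0.18 to 0.0394 over single arrays left out), and H2BC26 in the second was -0.0441 without parental A549 replicate 2 (range -0.0441 to 0.80). In the third, with probe means, H2AC6 was 0.0732 and H4C1 was 0.25. When single arrays were left out there, H2AC6 ran from -0.23 to 0.0335, H4C1 from -0.23 to 0.00031, H3C13 from -0.0052 to 0.19, H2BC6 from -0.0389 to 0.27 and H2BC26 from -0.55 to 0.30, in each case past 0 without 1 of the parental arrays. The median of all probes moved by at most 0.12, with no detection filter, where it was -0.15 for OSK-A549-Colony minus parental A549 and the members' median lay 0.03 above it, against -0.08 with the filter. Calls over all probes ranged from 0 to 1581 for this comparison, from 0 to 1085 for OSK-A549-SN minus parental A549 and from 0 to 139 between the transduced groups, with 0 in the first 2 under the replicate block. Without single arrays these counts ran from 0 to 1362 and from 0 to 190.

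Counts at an unadjusted p below 0.05 over all members tested, a measure added after seeing the data, moved more. For the colony cells against parental A549 the count of 5 became 9 with normexp, 9 with quantile normalization, 3 with no detection filter and 1 to 17 when single arrays were left out. For the SN cells against parental A549 the count of 21 became 34 with normexp, 12 with slide as a block, 34 with all 9 arrays in 1 fit and 3 to 19 when single arrays were left out. For the colony against the SN cells it stayed between 38 and 57 of those tested. The count of 2 past the F test became 25 with normexp, 22 with the stricter detection filter, 0 with no detection filter, 0 with no moderation and 0 to 7 when single arrays were left out. The cause of these shifts was not tested.

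With the replicate number as a block, the unadjusted counts were 52 for the colony against the SN cells, 6 for the SN against the parental cells and 1 for the colony against the parental cells, and no member was called. Deviations of same-numbered OSK-A549-Colony and OSK-A549-SN arrays correlated at 0.24, 0.07 and 0.14, and each OSK-A549-Colony array correlated best with its own number, but not all pairs passed 0.1. The pairs share a number and a passage label, which replicates 1 and 3 also share with each other, and no pairing was used. The slide could not be used as a block for OSK-A549-Colony against parental A549, whose arrays shared 1 slide. Signal over background limits H1-1, H1-5, H1-6, H2BC1, H2BC7 and H4C7, which give no usable level in these cells. H2AC1 and H2AC25 were also dim, at 26.6 to 60.6 and 28.7 to 59.6 intensity units. The lowest probe well above background read 7.9 to 13.5 units across the arrays.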
